A study of Mus musculus with 12 samples.

Results

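The transcripts described here come from 31 genes that make, move, export or store cholesterol, read in 12 RNA-sequencing libraries whose labels name Hepa1-6 (a line of mouse hepatoma cells) and liver as the tissue. Genes were taken from a written list and kept where at least 3 of the 12 libraries held 10 or more counts. All 31 listed genes met this rule, of 21878 genes in the count table, and all 31 were among the 14330 genes tested. By role there were 18 synthesis genes, 3 regulators of synthesis, 2 genes of uptake and intracellular transport, 4 efflux transporters, 2 LXR receptors and 2 esterification enzymes. The 4 groups held 3 libraries each: untreated, IFNa (mouse interferon alpha, labelled mIFNalpha), antiPD1 (an antibody that binds PD-1, an inhibitory receptor of T cells) and the combination of both agents. The labels give neither dose nor time, and do not say whether the cells grew in culture or as tumours in animals. They also do not say whether replicates were separate cultures or animals, so p-values measure only the spread between these libraries.

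Cholesterol is built from acetyl-CoA by way of mevalonate, isoprenoids and squalene, and in liver it also feeds bile acid and lipoprotein formation. When sterol is scarce, the escort protein Scap carries the precursor of the transcription factor SREBP2 (encoded by Srebf2) to the Golgi, where proteases release the fragment that switches on synthesis genes. Insig proteins hold this complex back when sterol is plentiful. Oxysterols activate the LXR receptors, which switch on efflux transporters, and the Soat enzymes turn free cholesterol into esters for storage, Soat1 mainly in macrophages and Soat2 mainly in hepatocytes and intestine.

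Promoters of these genes are shown because SREBP2 acts together with the factors NF-Y and Sp1 at nearby sites. RefSeq promoters of build GRCm38.p6 were matched for 25 of the 31 genes, in 31 windows of 250 bases before a start site. Those of Sqle, Stard4, Abcg1, Fdps, Fdft1 and Soat2 were not used here. Motifs were searched as letters on both strands, with overlaps between motifs allowed. The box CCAAT, bound by NF-Y, was in 14 of 18 windows of synthesis genes (77.8%), against 33.9% of all 32851 windows. The box GGGCGG, bound by Sp1, was in 15 of the 18 (83.3%), against 32.7% of all windows. The sterol regulatory element, searched as TCACNCCA, was in 3 windows of the listed genes (Hmgcs1, Msmo1 and Srebf2) and in 3.67% of all windows. The 3 windows of the LXR receptor genes held none of these motifs. A match is a run of letters and not a measured binding site.

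The 4 promoters below belong to genes whose levels are described later: the mevalonate pathway enzyme Hmgcs1, the late synthesis enzyme Hsd17b7, the regulator Srebf2 and the esterification enzyme Soat1. Each is trimmed so that it holds no annotated exon and is written 5′ to 3′ on the strand of its gene. Capitals mark the sterol regulatory element TCACNCCA and the CCAAT box, which reads ATTGG where it lies on the other strand. They lie at chr13:119690101-119690350 (plus strand), chr1:169969242-169969408 (minus), chr15:82147019-82147180 (plus) and chr1:156474332-156474578 (minus).
Hmgcs1: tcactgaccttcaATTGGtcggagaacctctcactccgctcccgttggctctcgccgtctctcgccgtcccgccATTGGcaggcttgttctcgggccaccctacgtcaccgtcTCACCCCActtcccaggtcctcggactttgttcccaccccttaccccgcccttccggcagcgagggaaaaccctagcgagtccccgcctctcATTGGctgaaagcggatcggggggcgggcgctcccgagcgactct
Hsd17b7: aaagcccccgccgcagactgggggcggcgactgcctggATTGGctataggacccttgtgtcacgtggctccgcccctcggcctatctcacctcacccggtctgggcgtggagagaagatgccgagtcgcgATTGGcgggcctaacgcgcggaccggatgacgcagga
Srebf2: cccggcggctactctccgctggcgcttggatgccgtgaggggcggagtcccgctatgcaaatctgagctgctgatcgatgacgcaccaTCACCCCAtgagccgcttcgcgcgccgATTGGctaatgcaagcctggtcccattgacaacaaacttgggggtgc
Soat1: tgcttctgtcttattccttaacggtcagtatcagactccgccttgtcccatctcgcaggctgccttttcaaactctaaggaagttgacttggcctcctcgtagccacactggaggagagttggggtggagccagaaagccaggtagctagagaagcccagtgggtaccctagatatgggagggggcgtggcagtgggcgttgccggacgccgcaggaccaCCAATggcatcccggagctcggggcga
The Hmgcs1 window held 1 sterol regulatory element, 137 bases before the RefSeq start site, and 3 CCAAT boxes. That of Srebf2 held 1 element, 162 bases before its RefSeq start site, and 1 CCAAT box. The GENCODE start of Srebf2 (chr15:82147181) lies inside its window, so the stretch shown ends before the RefSeq start site. The stretch of Hsd17b7 shown holds 2 CCAAT boxes, and the Soat1 stretch holds 1, near its 3′ end.

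Library totals ranged from 31.3 to 38.5 M counts, and levels are given as CPM (counts scaled to the TMM-adjusted library size) unless FPKM is named. The hepatoma markers (Afp, Gpc3, Hnf4a, Krt8 and Krt18) summed to 13923 to 15528 CPM (untreated), 13156 to 16010 (IFNa), 9886 to 11188 (antiPD1) and 8524 to 10016 (combination). They were lower in all 6 libraries given antiPD1 than in the other 6. Markers of other cells were present as well, and they differed between groups. Summed macrophage markers (10 genes, all above 0 in every library) ranged from 322 to 588 CPM (untreated), 378 to 613 (IFNa), 1053 to 4346 (antiPD1) and 1366 to 1733 (combination). Summed adult hepatocyte markers (10 genes, also above 0 throughout) were 248 to 575, 371 to 1654, 380 to 3169 and 417 to 1837 CPM in the same order. Their highest values were in IFNa replicate 1, antiPD1 replicate 3 and combination replicate 1. In such bulk samples, fewer cells of a type and less RNA per cell cannot be told apart.

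Compared per length in deposited FPKM, Sqle had the highest mean level of the 31 genes over the 12 libraries (81.2 FPKM), above Msmo1 (41.4), Ebp (36.9), Fdps (36.7) and Hmgcs1 (36.6). The ranges of Msmo1, Ebp, Fdps and Hmgcs1 over the libraries overlapped, so their order is not resolved, and the lowest value of Sqle (51.3 FPKM) was below the highest of Msmo1 (63.8) and of Hmgcs1 (53.4). LXR beta (Nr1h2, 28.0 FPKM), Srebf2 (22.4) and Abca1 (15.2) followed as the highest genes outside synthesis. Abcg5 (0.699 FPKM), Abcg8 (0.436) and the intestinal sterol importer Npc1l1 (0.0490) were lowest. Npc1l1 had 1 to 38 counts per library, where the floor of 3 counts was 0.0786 to 0.102 CPM. It spanned 0.0325 (antiPD1 replicate 3) to 1.14 CPM (IFNa replicate 1). Its 95% interval with IFNa was -1.50 to 2.71 on the log2 scale, so only a large change was detectable.

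**Figure D1:**
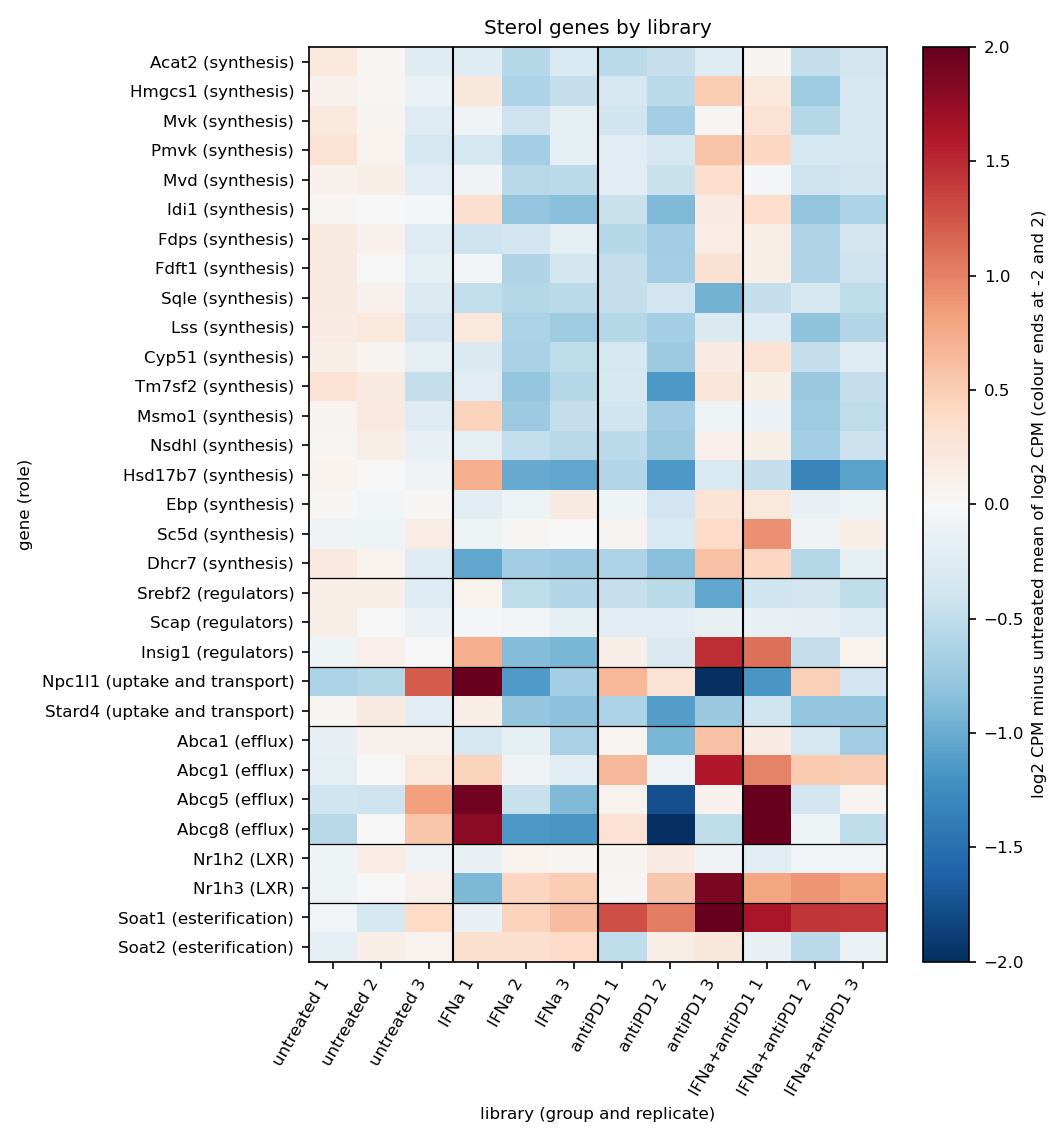
Colour gives the log2 CPM of each of the 31 genes (vertical axis, by role) in each of the 12 libraries (horizontal axis), minus the mean log2 CPM of the 3 untreated libraries, with the colour ends at -2 and 2. Most synthesis genes are blue in the treated libraries except antiPD1 replicate 3 and IFNa+antiPD1 replicate 1. In IFNa replicate 1 the red synthesis genes are Hmgcs1, Idi1, Lss, Msmo1 and Hsd17b7. Soat1 is red in all 6 libraries given antiPD1.

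Against untreated libraries, 3 sterol genes fell and 1 rose with antiPD1. The squalene epoxidase Sqle, the regulator Srebf2 and the cholesterol carrier Stard4 fell, and the esterification enzyme Soat1 rose. These were tested with edgeR's quasi-likelihood test, with p-values adjusted by Benjamini-Hochberg over 14330 genes. The share of the 31 genes that fell was 9.68%, beside 5.08% of all genes tested, and the share that rose was 3.23%, beside 9.76% of all genes. With counts this small, neither share sets the sterol genes apart from the rest. The IFNa and combination groups had 0 sterol genes past the threshold against the same untreated libraries. Beside the 3 falls with antiPD1, 2 of 5 hepatoma markers fell (list median -0.57) and 2 of 6 fibroblast markers rose (list median 1.42). In the combination 3 of 5 hepatoma markers fell. Of 8 proliferation markers, 2 fell with antiPD1 (list median -0.58) and 0 with IFNa or the combination. Their sums were 1133 to 1386 CPM in untreated and 811 to 969 in antiPD1 libraries. They were 458 (replicate 1) to 1254 with IFNa and 1097 to 1133 with the combination. The part of these shifts in the sterol genes was not tested.

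Sqle, which oxidises squalene in the first oxygen-dependent step of sterol synthesis, lies at chr15:59315077-59331192 (mm10). Its level was 374, 348 and 272 CPM in untreated libraries, 236, 252 and 171 in antiPD1, 233, 221 and 226 in IFNa, and 236, 264 and 231 in combination libraries. All 9 treated libraries were below all 3 untreated ones. With antiPD1, Sqle fell by 0.59 ± 0.15 on the log2 scale (SE, adjusted p = 0.0298, edgeR). The log2 fold change was -0.55 ± 0.15 with IFNa (unadjusted p = 0.00399, adjusted p = 0.845) and -0.44 ± 0.15 with the combination (adjusted p = 0.0754), which share the untreated libraries.

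Srebf2, the gene of SREBP2, lies on the same chromosome at chr15:82147181-82205379. It had 182, 182 and 138 CPM in untreated, 121, 115 and 81.0 in antiPD1, 175, 117 and 111 in IFNa, and 126, 129 and 117 in combination libraries. Untreated values did not overlap those of antiPD1 or of the combination, while IFNa replicate 1 lay within the untreated range. Srebf2 fell by 0.67 ± 0.20 with antiPD1 (adjusted p = 0.0447, edgeR) and had log2 fold changes of -0.32 ± 0.20 with IFNa (adjusted p = 0.885) and -0.44 ± 0.20 with the combination (adjusted p = 0.155).

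Stard4, which carries cholesterol between membranes inside the cell, lies at chr18:33199355-33213862. Its 69.5, 76.5 and 57.6 CPM in untreated libraries compared with 43.4, 31.3 and 40.2 in antiPD1 and 51.3, 39.2 and 39.6 in combination libraries, with no overlap. In IFNa libraries it had 73.8, 39.2 and 38.0 CPM, replicate 1 again being within the untreated range. The fall with antiPD1 was the largest of the 3 lower genes (-0.82 ± 0.25, adjusted p = 0.0473, edgeR), and the combination had -0.65 ± 0.25 (adjusted p = 0.102).

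Soat1, the enzyme that esterifies cholesterol in macrophages and many other cells, lies at chr1:156424525-156474331. It was at 11.6, 9.44 and 15.9 CPM in untreated and 10.9, 16.6 and 18.5 in IFNa libraries. With antiPD1 it had 29.5, 24.4 and 91.1 CPM, and with the combination 37.4, 32.6 and 32.2. All 6 libraries given antiPD1 were above the other 6, and antiPD1 replicate 3 was the highest of the 12. Soat1 rose with antiPD1 by a log2 fold change of 1.97 ± 0.45 (adjusted p = 0.0232, edgeR). In the combination the log2 fold change was 1.47 ± 0.44 (adjusted p = 0.0525). Macrophage markers moved the same way: 9 of 10 rose with antiPD1 and 5 of 10 with the combination, and antiPD1 replicate 3 had their highest sum (4346 CPM). T cell markers rose too, 5 of 5 and 2 of 5. The part of these cells in the level of Soat1 was not tested.

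**Figure D2:**
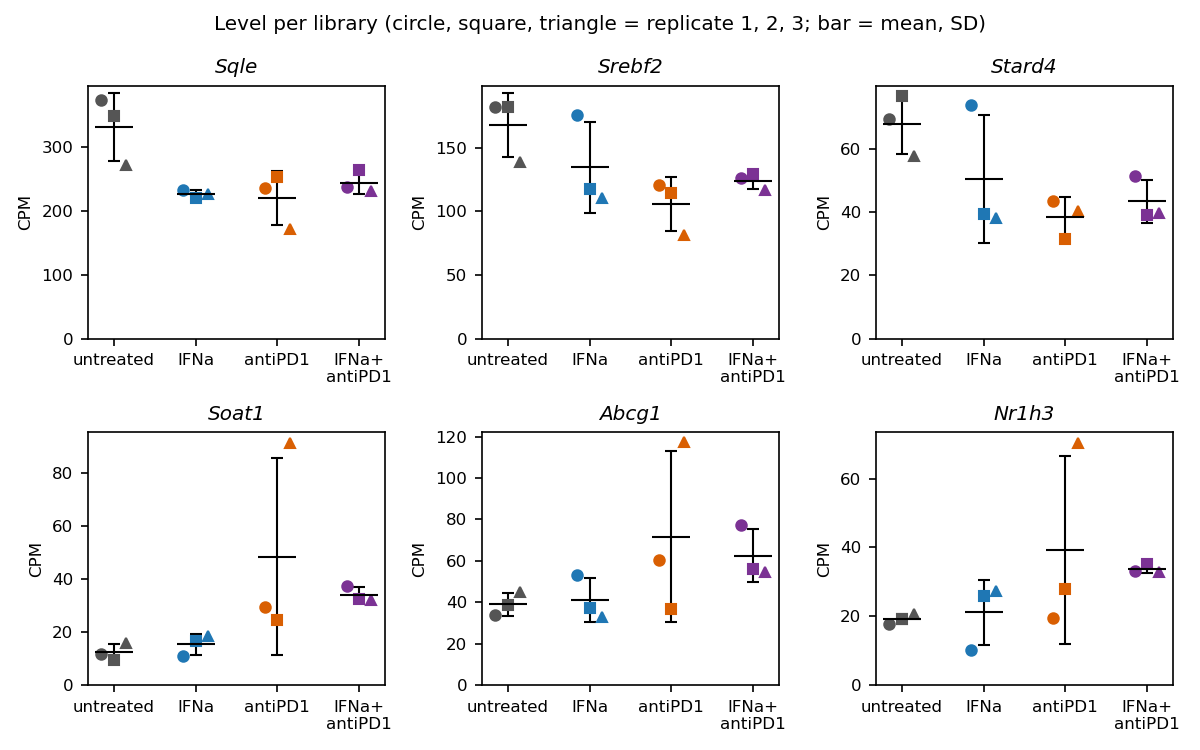
CPM of 6 genes in each library (circle, square and triangle for replicates 1, 2 and 3), with the group mean and SD as bars and each vertical axis starting at 0. Sqle is lower in all 9 treated libraries than in any untreated one, and Soat1 is higher in all 6 libraries given antiPD1 than in the other 6.

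The 4 calls with antiPD1 depended on single libraries. Without untreated replicate 1 or untreated replicate 2, 0 of the 31 genes passed, and without antiPD1 replicate 3 only Soat1 did (log2 fold change 1.14, adjusted p = 0.0496, edgeR). Srebf2 and Stard4 also lost their calls without antiPD1 replicate 2 (adjusted p = 0.0517 and 0.0976), without IFNa replicate 2 (0.0563 and 0.05004) and without any 1 of the 3 combination libraries (0.0558 to 0.0663). Stard4 lost its call without antiPD1 replicate 1 (0.0546).

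Among the 31 genes, 5 were lower in all 3 antiPD1 libraries than in any untreated one (Sqle, Hsd17b7, Srebf2, Scap and Stard4) and 1 was higher in all 3 (Soat1). These were 16.1% and 3.23% of the genes, where 18.5% and 17.5% of all genes tested were so placed. In the combination, the same 5 were lower (16.1%, beside 24.8% of all genes) and Abcg1, Nr1h3 and Soat1 were higher (9.68%, beside 24.7%). With IFNa, Sqle, Cyp51, Nsdhl, Dhcr7 and Abca1 were lower (16.1%, beside 5.22%) and Soat2 was higher (3.23%, beside 4.96%).

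The synthesis genes had small differences, mostly below 0. With IFNa all 18 had a log2 fold change below 0, with a median of -0.34 (range -0.83 to -0.03), while the median over all genes tested was 0.01 and 48.2% of them were below 0. With antiPD1 16 of 18 were below 0 (median -0.33), and with the combination 17 of 18 (median -0.26), where the median over all genes was -0.01 in each. Only Sqle passed, and only with antiPD1. The 3 comparisons share the untreated libraries, so a high level in these libraries lowers all 3 medians together.

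In IFNa libraries, 0 of the 31 sterol genes passed, as did 0% of all genes tested with edgeR. At an unadjusted p below 0.05 there were 801 genes, 2 of them sterol genes: Sqle and Dhcr7, the reductase that makes cholesterol from its immediate precursor. Dhcr7 had 38.5, 35.1 and 28.1 CPM in untreated and 16.3, 20.7 and 20.2 in IFNa libraries (log2 fold change -0.83 ± 0.36, adjusted p = 0.885, edgeR). Limma and DESeq2 also called 0 sterol genes in this comparison.

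**Figure D3:**
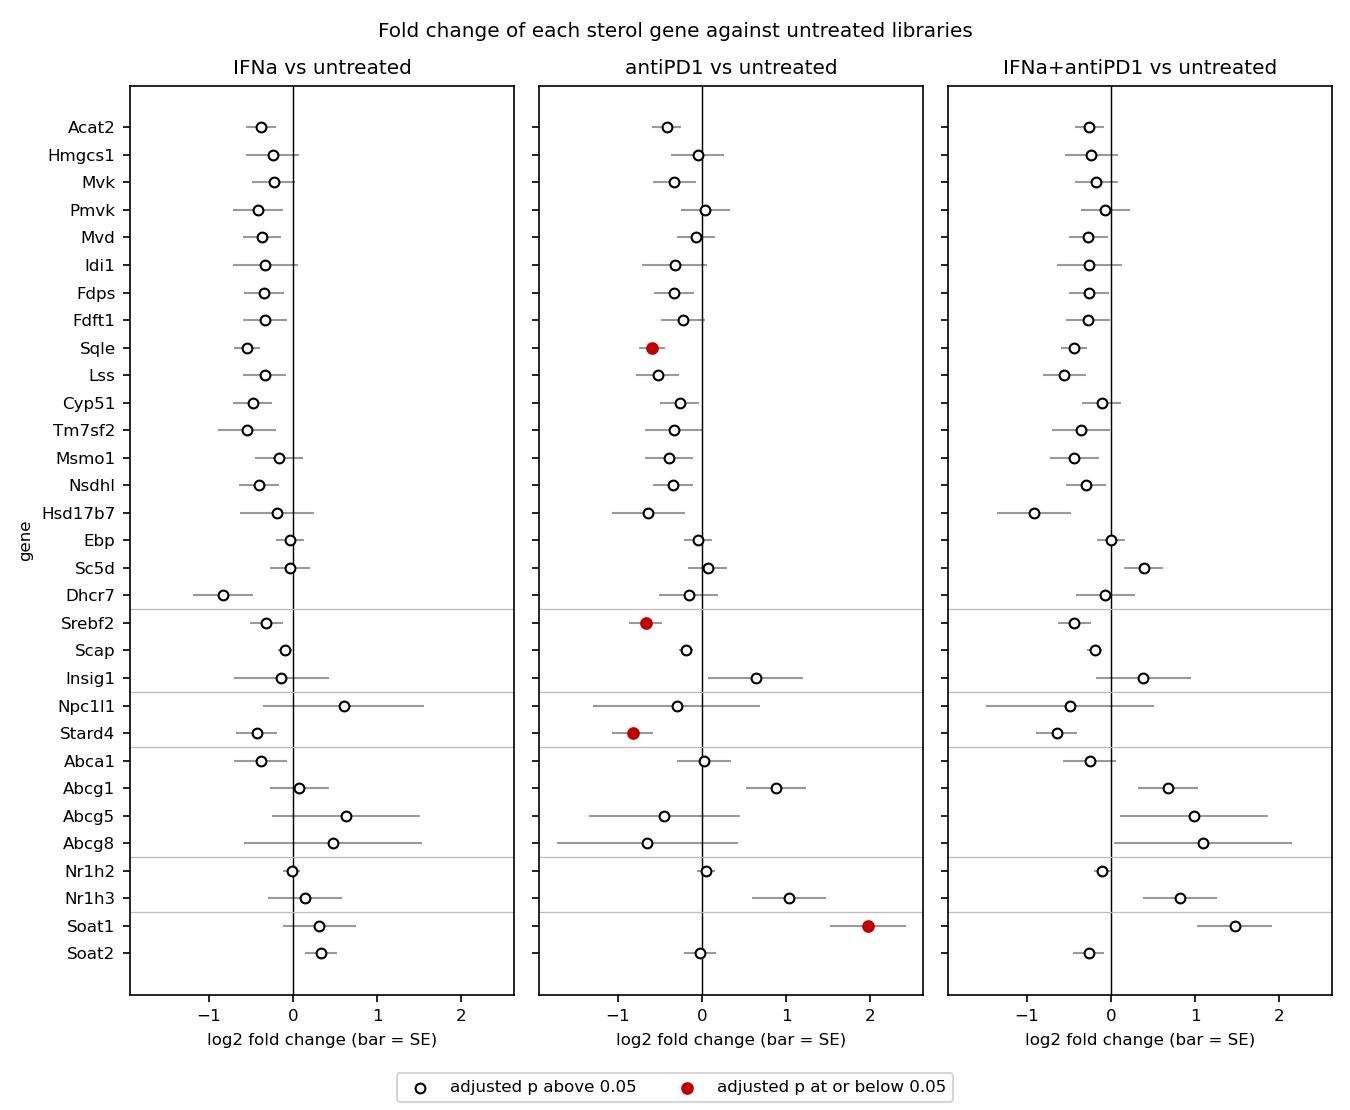
Log2 fold change of each of the 31 genes against untreated libraries (horizontal axis, points, with SE as bars) in 3 comparisons that share those libraries. Red points passed the threshold with edgeR: Sqle, Srebf2, Stard4 and Soat1 with antiPD1, and none with IFNa or the combination.

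The upper part of the pathway feeds mevalonate and isoprenoids to squalene. Hmgcs1, which makes HMG-CoA, had 175, 169 and 149 CPM in untreated, 192, 107 and 118 in IFNa, 130.1, 113 and 234 in antiPD1, with 191, 101 and 128 in the combination. In each treated group 1 library lay above all 3 untreated ones and the other two lay below them. Idi1, the isomerase of isoprenoid units, had the same placement: 22.1 CPM in IFNa replicate 1, 19.7 in antiPD1 replicate 3 and 22.6 in combination replicate 1, against 17.4 to 17.96 in untreated and 9.59 to 13.0 in the other 6 libraries. Neither gene passed in any comparison. Acat2 (acetyl-CoA condensation), Mvk, Pmvk and Mvd (steps through mevalonate) and Fdps (farnesyl diphosphate) had log2 fold changes between -0.42 and 0.04 in the 3 treated groups, with adjusted p from 0.121 upwards. Fdft1, the squalene synthase, was in the same range, but 20.9% of its exonic bases overlap the gene Ctsb, so its counts are uncertain. Fdps (77.4% of exonic bases), Scap (18.6%), Hmgcs1 (16%), Idi1 (10.7%) and Lss (8.16%) overlap genes absent from the count table, whose reads may be included.

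The later steps turn squalene into cholesterol. Lss, which closes the ring to lanosterol, had log2 fold changes of -0.34, -0.53 and -0.56 with IFNa, antiPD1 and the combination, and Msmo1, which removes methyl groups, had -0.17, -0.39 and -0.44. Hsd17b7, a ketone reductase of the same stage, had 31.8, 30.1 and 28.8 CPM in untreated, 20.2, 13.7 and 24.5 in antiPD1, with 21.8, 12.1 and 14.3 in the combination. Its IFNa values were 49.8, 15.1 and 14.8 CPM, so replicate 1 was the highest of the 12 libraries. The combination against untreated gave -0.91 ± 0.44 (adjusted p = 0.178, edgeR). The isomerase Ebp and the desaturase Sc5d had log2 fold changes from -0.05 to 0.39. Cyp51 (demethylation of lanosterol), Tm7sf2 (sterol reduction) and Nsdhl (removal of carboxyl groups) were between -0.54 and -0.11, without a call. Dhcr7, Hsd17b7, Hmgcs1, Idi1 and Insig1 are given by library because of their placement, chosen after their values were seen.

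The synthesis genes spread widely within the treated groups. With Sqle included, their summed level was highest in untreated replicate 1 (1298 CPM) and lowest in antiPD1 replicate 2 (814 CPM). Summed without Sqle, they were at 924, 897 and 773 CPM in untreated, 869, 608 and 670.1 in IFNa, 672, 562 and 1010 in antiPD1, with 1000.3, 587 and 684 in the combination. IFNa replicate 1, antiPD1 replicate 3 and combination replicate 1 had the highest sum of their group. They also had the most adult hepatocyte marker RNA of their group (1654, 3169 and 1837 CPM). The untreated group went the other way. Its replicates 1, 2 and 3 had 248, 291 and 575 CPM of these markers, beside synthesis sums of 924, 897 and 773. The part of hepatocytes in the synthesis genes was not tested. Untreated replicate 1 was among the 3 highest libraries for 13 of the 18 synthesis genes, antiPD1 replicate 3 and combination replicate 1 for 12 each and untreated replicate 2 for 9, while antiPD1 replicate 2 was the lowest for 9.

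**Figure D4:**
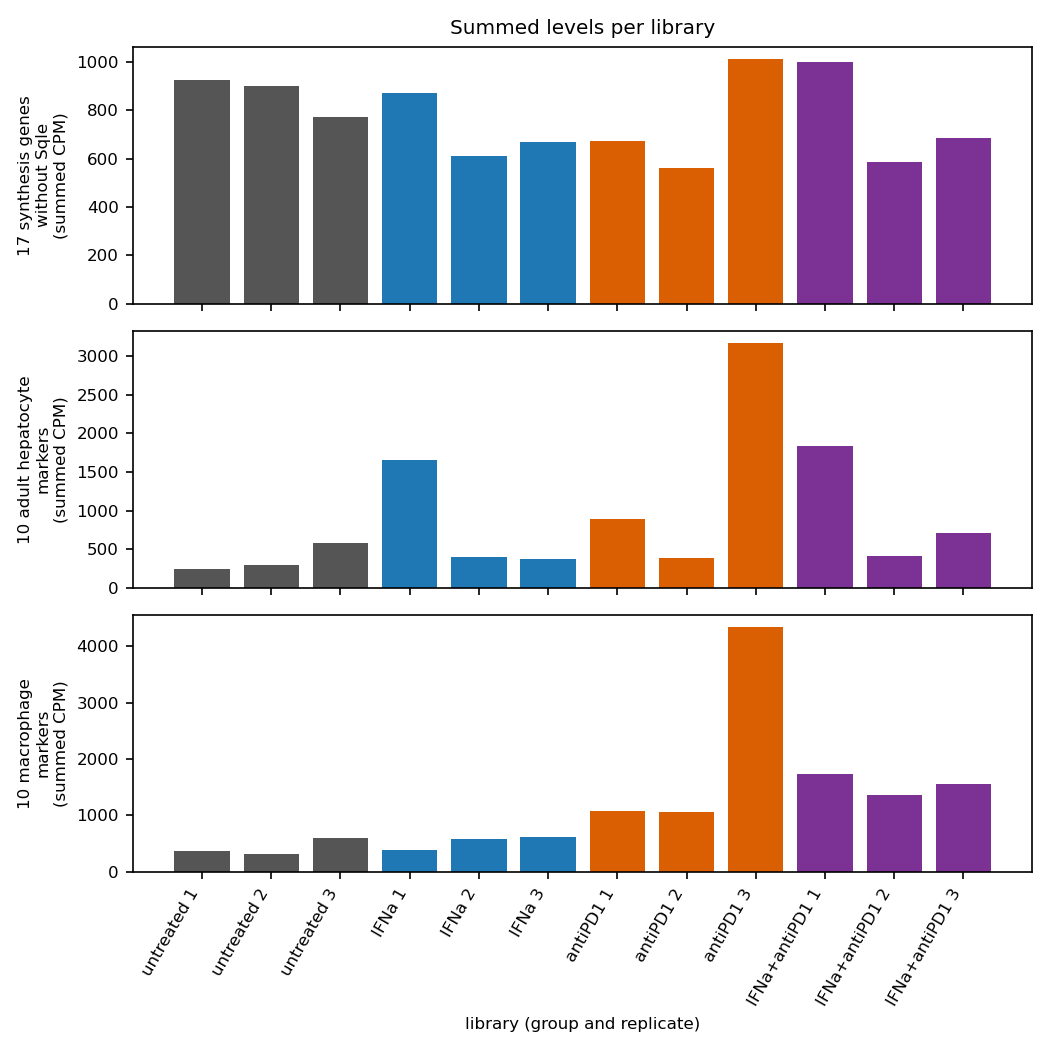
Summed CPM per library, with bars from 0 in group colours, of 17 synthesis genes without Sqle, 10 adult hepatocyte markers and 10 macrophage markers. IFNa replicate 1, antiPD1 replicate 3 and IFNa+antiPD1 replicate 1 are the highest of their group in the first and the middle panel. Untreated replicate 3 is the lowest of its group in the first panel and the highest in the middle panel.

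Sqle and its regulator Srebf2 were placed differently from most synthesis genes in antiPD1 replicate 3. Both had their lowest level of the 12 libraries there (171 and 81.0 CPM), while Hmgcs1 (234 CPM), Dhcr7 (50.5) and Insig1 (88.8) had their highest. Sqle made up 14.5% of the summed synthesis CPM in that library and 19.1% to 31.03% in the other 11. The ratio of Sqle to Hmgcs1 was 0.731 there, 1.21 in IFNa replicate 1 and 1.24 in combination replicate 1, and 1.81 to 2.62 in the remaining 9 libraries.

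Of the regulators, Scap had 94.0, 86.2 and 79.9 CPM in untreated, 75.1, 73.9 and 78.5 in antiPD1, 84.5, 83.1 and 75.4 in IFNa, and 78.04, 77.01 and 72.02 in combination libraries. Its values with antiPD1 or the combination were below all untreated ones, by a small amount (-0.19 ± 0.08, adjusted p = 0.135, and -0.20 ± 0.08, adjusted p = 0.140, edgeR). Insig1, which retains Scap in the endoplasmic reticulum and is itself switched on by SREBP2, spread far more. It had 30.0, 34.3 and 31.7 CPM in untreated, 52.98, 17.4 and 16.95 in IFNa, 34.8, 26.05 and 88.8 in antiPD1, with 68.6, 23.0 and 33.5 in the combination. The replicates of each treated group lay on both sides of the untreated range.

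**Figure D5:**
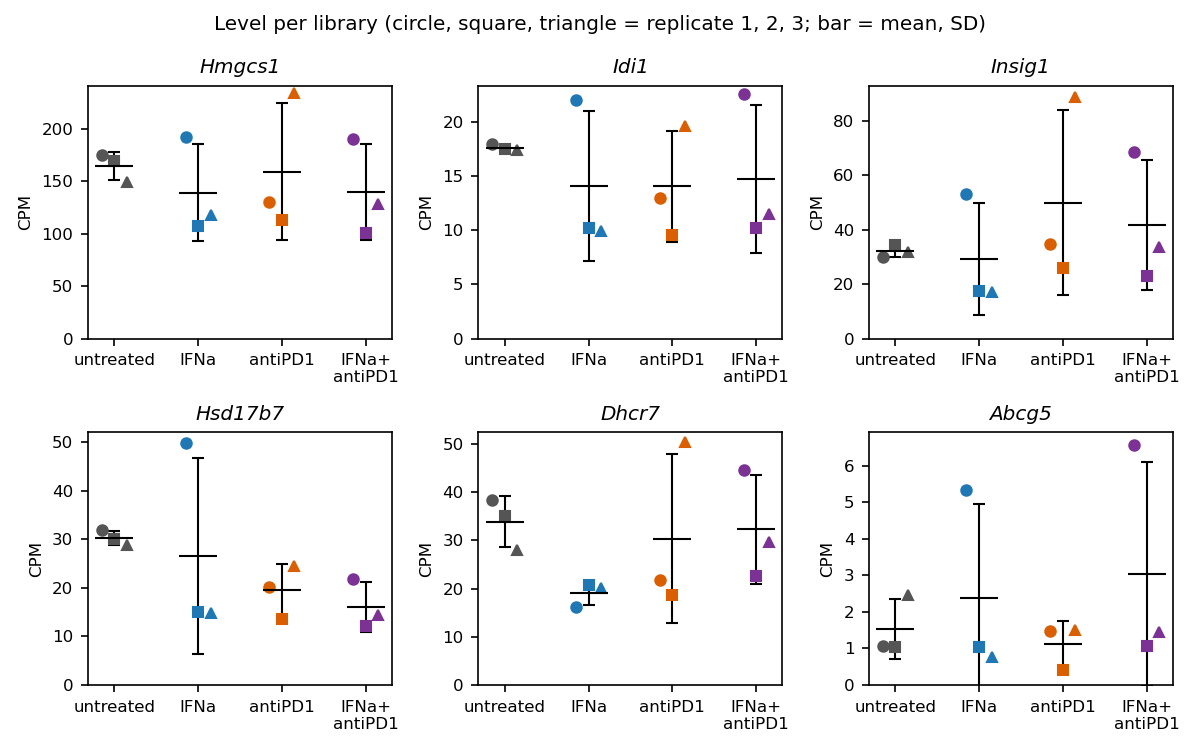
CPM of 6 genes in each library (circle, square and triangle for replicates 1, 2 and 3), with the group mean and SD as bars and each vertical axis starting at 0, where a bar that would pass below 0 is cut off. In Hmgcs1, Idi1 and Insig1, IFNa replicate 1, antiPD1 replicate 3 and IFNa+antiPD1 replicate 1 stand above the other libraries of their group.

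Among efflux genes, Abcg1, which passes cholesterol to HDL, lies at chr17:31057675-31117988. It had 33.8, 38.5 and 44.8 CPM in untreated, 53.1, 37.1 and 33.1 in IFNa, 60.5, 36.9 and 118 in antiPD1, with 77.1, 55.8 and 54.4 in the combination. All 3 combination libraries were above the untreated ones, while antiPD1 replicate 2 was within their range. The log2 fold changes were 0.88 ± 0.35 with antiPD1 (adjusted p = 0.111) and 0.68 ± 0.35 with the combination (adjusted p = 0.210, edgeR). Without antiPD1 replicate 3, the antiPD1 value of Abcg1 was 0.33 (adjusted p = 0.471). Abca1, the transporter that loads cholesterol onto apolipoprotein A1, had -0.38, 0.02 and -0.25 with IFNa, antiPD1 and the combination.

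Abcg5 and Abcg8 form the transporter that moves sterols into bile. Abcg5 had 1.07, 1.05 and 2.47 CPM in untreated, 5.35, 1.03 and 0.760 in IFNa, 1.47, 0.416 and 1.49 in antiPD1, with 6.57, 1.08 and 1.46 in the combination. Its highest levels were in combination replicate 1 and IFNa replicate 1, and so were those of Abcg8 (7.72 and 5.32 CPM), 2 of the 3 libraries with the most hepatocyte marker RNA. Abcg8 spanned 0.111 to 7.72 CPM, and neither gene passed in any comparison. The 2 genes share 40 exonic bases on opposite strands.

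The LXR receptors differed from each other. LXR beta (Nr1h2) had 91.5, 107 and 92.9 CPM in untreated, 87.5, 102 and 99.4 in IFNa, 100.3, 109 and 92.0 in antiPD1, with 83.8, 93.6 and 93.8 in the combination, a span of 1.30-fold over the 12. LXR alpha (Nr1h3), which is high in liver and macrophages, had 17.7, 19.1 and 20.6 CPM in untreated, 10.3, 25.8 and 27.2 in IFNa, 19.5, 27.9 and 70.4 in antiPD1, with 33.2, 35.1 and 33.0 in the combination. All 3 combination values were above the untreated ones, and antiPD1 replicate 3 was the highest of the 12. Its log2 fold change was 1.03 ± 0.44 with antiPD1 (adjusted p = 0.131) and 0.82 ± 0.44 with the combination (adjusted p = 0.229, edgeR). Without antiPD1 replicate 3, the antiPD1 value was 0.32 (adjusted p = 0.604).

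The esterification enzymes differed in level and in placement. Soat2, the hepatocyte enzyme, had 21.3, 26.6 and 25.6 CPM in untreated, 30.4, 30.4 and 31.9 in IFNa, 17.1, 26.7 and 28.6 in antiPD1, with 22.02, 16.9 and 22.1 in the combination. IFNa values were above all untreated and all combination values. Its log2 fold change was 0.33 ± 0.19 for IFNa against untreated (adjusted p = 0.885) and -0.60 ± 0.19 for the combination against IFNa (unadjusted p = 0.00801, adjusted p = 0.102, edgeR). Compared per length, the FPKM ratio of Soat1 to Soat2 was 0.189 to 0.377 in untreated and IFNa libraries and 0.580 to 1.84 in the 6 libraries given antiPD1.

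In the combination against untreated libraries 0 of the 31 genes passed, while 7.58% of all genes tested rose and 5.0% fell. The smallest adjusted p-values were those of Soat1 (0.0525) and Sqle (0.0754), and 5 sterol genes had an unadjusted p below 0.05, of 4558 genes in all. Leaving out antiPD1 replicate 3, which is in neither group but adds to the shared spread, took Soat1 to an adjusted p of 0.00438 and Sqle to 0.0232 (edgeR). Soat1 also passed without antiPD1 replicate 1 (0.0480) or antiPD1 replicate 2 (0.0356), Soat1 (0.0494) and Sqle (0.0290) without untreated replicate 3, and Stard4 (0.0243) and Hsd17b7 without IFNa replicate 1.

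The combination was also compared with each agent alone. Against IFNa, 0 sterol genes passed, with 0.342% of all genes tested rising and 0.614% falling. Of 3307 genes with an unadjusted p below 0.05, 2 were sterol genes, Soat1 (1.15 ± 0.44, adjusted p = 0.150, edgeR) and Soat2. Both passed when antiPD1 replicate 3 was left out. Against antiPD1, 0 sterol genes and 0% of all genes passed. There were 682 genes with an unadjusted p below 0.05, 0 of them sterol genes, and DESeq2 also called 0 sterol genes. The 95% interval of that difference was -1.45 to 0.45 for Soat1 and -0.18 to 0.48 for Sqle on the log2 scale, so changes of moderate size were not detectable.

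Averaged over both IFNa states, 6 libraries given antiPD1 were compared with 6 that were not. Soat1 rose by a log2 fold change of 1.56 ± 0.31 (adjusted p = 0.00656), Abcg1 rose by 0.74 ± 0.25 (adjusted p = 0.0492) and Stard4 fell by 0.52 ± 0.17 (adjusted p = 0.0474, edgeR). These were 6.45% of the 31 genes rising and 3.23% falling, beside 15.9% and 10.9% of all genes tested, so both shares were below the background. In the same comparison 5 of 5 hepatoma markers fell and 9 of 10 macrophage, 5 of 5 T cell, 3 of 6 fibroblast and 3 of 10 adult hepatocyte markers rose, and their part in the sterol genes was not tested. This comparison holds the same libraries as the antiPD1 comparison above and is not independent of it. Nr1h3 (0.86 ± 0.31, adjusted p = 0.0649) and Srebf2 (-0.39 ± 0.14, adjusted p = 0.0572) did not pass. Soat1 passed in all 21 alternatives (adjusted p up to 0.0216). Leaving out untreated replicate 1, untreated replicate 2, antiPD1 replicate 3 or any 1 combination library left Soat1 as the only call. Stard4 also lost its call without IFNa replicate 1 (-0.33, adjusted p = 0.0552) or antiPD1 replicate 2 (0.0828). Abcg1 kept its call only without IFNa replicate 1 (0.0404) or antiPD1 replicate 2 (0.00988) among the single omissions, and had 0.45 without antiPD1 replicate 3.

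The corresponding average of IFNa called 0 sterol genes and 0% of all genes, with 615 genes and 0 sterol genes at an unadjusted p below 0.05. The interaction, which asks whether the antiPD1 difference changes with IFNa, also called 0 sterol genes and 0% of all genes with edgeR. At an unadjusted p below 0.05 it had 868 genes, 2 of them sterol genes: Sqle (0.70 ± 0.21, unadjusted p = 0.00740, adjusted p = 0.725) and Soat2. DESeq2 called 0 sterol genes in both. The interaction was above 0 in 17 of 18 synthesis genes (median 0.36). Over all genes tested the median was -0.03, and 54.1% were below 0. Untreated levels enter the interaction with a plus sign, so a high level in those libraries raises it in these genes together. The mean level of Sqle was 331 ± 53.1 CPM (SD, n = 3) for untreated, 227 ± 6.11 for IFNa, 219.6 ± 42.7 for antiPD1 and 244 ± 17.7 for combination libraries, so the combination was not the lowest.

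Synthesis was set against efflux as the mean log2(CPM + 1) of the 18 synthesis genes minus that of the efflux and LXR genes. The difference was 0.97 ± 0.35 (SD, n = 3) for untreated, 0.63 ± 0.13 for IFNa, 0.54 ± 0.16 for antiPD1 and 0.37 ± 0.16 for combination libraries. Untreated replicate 3 had 0.59, within the range of the treated libraries (0.24 to 0.78), so the groups overlapped. Each gene has the same weight in the score, also the low Abcg5 and Abcg8. These had their highest levels (6.57 and 7.72 CPM) in combination replicate 1, the library with the lowest score (0.24). Abcg1 (118 CPM) and Nr1h3 (70.4) were highest in antiPD1 replicate 3, which had the highest macrophage marker sum. The part of hepatocytes and macrophages in the score was not tested, and no test was made of the score itself.

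A second list of 21 sterol genes outside the 31 covered geranylgeranyl synthesis, SREBP processing, lysosomal handling, lipoprotein receptors and bile acid synthesis. With antiPD1, 1 of 21 rose (4.76%, beside 9.76% of all genes tested) and 2 fell (9.52%, beside 5.08%). The lysosomal cholesterol carrier Npc2 had 158, 146 and 143 CPM in untreated and 215, 174 and 404 in antiPD1 libraries, with no overlap (0.83 ± 0.25, adjusted p = 0.0463, edgeR). Lbr, a sterol reductase of the nuclear envelope, fell by 0.49 ± 0.11 (adjusted p = 0.0228), and Mbtps2, a Golgi protease that releases SREBP2, fell by 0.34 ± 0.09 (adjusted p = 0.0359). In the combination Lbr alone fell (4.76% of the list, beside 5.0% of all genes; -0.39 ± 0.11, adjusted p = 0.0466). In the average of antiPD1, 3 rose (14.3%, beside 15.9% of all genes) and 2 fell (9.52%, beside 10.9%), shares close to the background. The falls were those of Lbr and Mbtps2, and the rises were Nceh1, which frees cholesterol from esters (0.70 ± 0.18, adjusted p = 0.0182), Npc2 and the bile acid enzyme Cyp8b1 (2.21 ± 0.65, adjusted p = 0.0303). Cyp8b1 was highest in antiPD1 replicate 3 (51.9 CPM) and combination replicate 1 (36.5), 2 libraries with high adult hepatocyte marker sums, whose part in it was not tested. Npc2 (404 CPM) and Nceh1 (73.1) were also highest in antiPD1 replicate 3, which had the highest macrophage marker sum (4346 CPM). The part of macrophages in these genes was not tested either. How the calls on this second list depend on single libraries is not given here. In the other 5 comparisons 0 of the 21 genes passed.

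Results without the libraries richest in hepatocyte markers were computed after these values had been seen. With IFNa replicate 1, antiPD1 replicate 3 and combination replicate 1 left out, 14301 genes were tested. With antiPD1, 9 of the 31 sterol genes then fell and 1 rose (edgeR), where 3.53% of all genes fell and 5.17% rose. Of these, 7 were synthesis genes: Idi1, Fdps, Fdft1, Lss, Nsdhl, Hsd17b7 and Dhcr7, with log2 fold changes from -0.57 to -0.82, and Srebf2, Stard4 and Soat1 passed as well. Sqle then had -0.43 (adjusted p = 0.0728). In the combination 10 fell and 2 rose, where 7.94% of all genes fell and 11.3% rose. The 8 synthesis genes among them were Hmgcs1, Idi1, Fdps, Fdft1, Lss, Msmo1, Nsdhl and Hsd17b7 (-0.48 to -1.18), beside Srebf2, Stard4, Nr1h3 (0.84 ± 0.15, adjusted p = 0.00804) and Soat1. With IFNa 0 sterol genes passed, where 0.0420% of all genes rose and 0% fell. The 3 libraries left out also had the highest synthesis sums of their groups, so leaving them out lowers the treated means by construction. It also takes their spread out of the shared estimate. With all 12 libraries the combination had 0.82 for Nr1h3 (adjusted p = 0.229) and -0.44 for Srebf2 (0.155, edgeR). Without the 3 it had 0.84 and -0.43 (0.0359 for Srebf2, edgeR), nearly the same fold changes. The libraries were picked after the values were seen, so the added calls are no support for a change in these genes. The medians over synthesis genes became -0.51, -0.53 and -0.46 with IFNa, antiPD1 and the combination.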

How the data were processed

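Total RNA of 12 libraries was sequenced, and groups were taken from the labels, with columns matched to samples by name (0 columns of other samples). The deposited tables give whole-number counts per gene and, separately, FPKM values, which are scaled to gene length and library size. HISAT2 2.1.0, HTSeq, Cufflinks and mm10 are listed, per the submitters' processing notes. No annotation or strand setting is given in the sources used here, so reads of genes that overlap on opposite strands may not be separated.

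In R 4.3.3, counts were filtered with filterByExpr (minimum count 10), TMM-scaled and put through the quasi-likelihood test (robust setting) of edgeR 4.0.16, in a model of all 12 libraries with a mean for each group. In each of 8 comparisons the Benjamini-Hochberg adjustment ran over all genes tested, with a threshold of 0.05. Errors beside fold changes are standard errors. Intervals are at 95%. Alternatives were size factors by RLE, all genes unfiltered, DESeq2 1.42.0, a block for replicate number, fits on only the groups compared, limma 3.58.1 on log2(FPKM + 1) or log2(FPKM + 0.1), and leaving out libraries. The edgeR procedure was run on simulated counts drawn gene by gene, without shifts shared between genes, so that run is no support for the sterol calls. Floors cover counting error only. Library pairs within a group all differed beyond counting noise and were kept apart.

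Gene loci are from GENCODE M21. The genes, lists and tests were chosen with earlier results of these data known. Levels in every library are given for genes that passed in any comparison and for the gene of each role with the smallest p in the average of antiPD1 or of IFNa, and other genes are named as chosen later.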

Additional observations from a re-analysis of the deposited data

How the results depend on the processing

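Counts of the 31 sterol genes past the threshold were 0 in every alternative for IFNa against untreated, the combination against antiPD1, the average of IFNa and the interaction. The 4 calls with antiPD1 became 1 (limma, log2(FPKM + 1)), 2 (limma, log2(FPKM + 0.1)), 0 (limma without a filter), 0 (only the groups compared) and 10 with IFNa replicate 1, antiPD1 replicate 3 and combination replicate 1 left out together, and 0 to 4 without 1 library. The 0 calls in the combination against untreated became 2 (DESeq2), 3 (replicate block), 1 (limma, log2(FPKM + 0.1)), 7 (only the groups compared), 8 (omitting IFNa replicate 1 with antiPD1 replicate 3) and 12 (all 3 left out), and 0 to 2 without 1 library. The 0 calls in the combination against IFNa became 1 (DESeq2), 2 (only the groups compared) and 1 (IFNa replicate 1 and antiPD1 replicate 3 left out), and 0 to 2 without 1 library. The 3 calls in the average of antiPD1 became 5 (DESeq2), 1 in each of the 3 limma fits and 6 (all 3 left out), and 1 to 4 without 1 library. The cause of these changes was not tested. No fold change of a named gene changed its sign where it had been called.

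Whether replicate numbers pair the libraries was not resolved. Correlations of same-numbered libraries ranged from -0.289 to 0.601 over 18 pairs (median 0.059). Those of other numbers ranged from -0.682 to 0.578 over 36 pairs (median -0.047). Of the 12 libraries, 6 correlated best with their own number. With the replicate block, Soat1 (adjusted p = 0.0243), Sqle (0.0453) and Stard4 (0.0470) passed in the combination, and the average of antiPD1 gained Srebf2 and Nr1h3 and lost Abcg1, for 4 calls. The median interaction of the synthesis genes moved from 0.36 to 0.69 with IFNa replicate 1 and antiPD1 replicate 3 left out. These had the highest synthesis sums of groups that enter the interaction with a minus sign, so leaving them out raises it by construction. With combination replicate 1 left out as well, the median was 0.51. Synthesis against efflux was lower by 0.34 in libraries given antiPD1 than in the others (-0.30 in FPKM, -0.40 to -0.25 without 1 library). With 3 libraries a group, differences below the spread of antiPD1 libraries were not detectable.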
